A study of Homo sapiens with 8 samples.

Results

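The 6 genes described here encode the coat and the neck of caveolae: CAV1, CAV2, CAVIN1, CAVIN3, EHD2 and PACSIN2. They were selected by name from the 60612 genes of the deposited table, and each was found once. The set was proposed with the low CAV1 values of melatonin-treated cells already known, so the values of the members over dose are given as a description, without a test. Tests were kept for the difference between the cell lines and for the difference of their dose slopes.

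RNA came from 5637 and UM-UC3 cells, both established human bladder cancer (BLCA) lines labelled as wild type, after 24 h of treatment. Each line received DMSO (0 mM) or melatonin at 1, 2 or 4 mM, which gives 8 libraries with 1 per dose and line. No dose was replicated within a line, so a p-value here speaks of the scatter of the libraries about a fitted trend and not of repeated cultures. 5637 cells grew in RPMI medium but UM-UC3 in MEM, each with 10% serum, so the line and its medium cannot be told apart.

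Caveolae are flask-shaped pits of the plasma membrane, rich in cholesterol, that flatten when the membrane is stretched. Caveolin-1, with caveolin-2 as its partner, inserts into the inner leaflet and is needed to form the pits in most tissues. Cavins assemble a second coat on the caveolins from the cytosol. EHD2, an ATPase, sits at the neck and holds the pit at the surface, and PACSIN2, an F-BAR protein, bends the neck membrane. Caveolae are abundant in endothelium, fat and smooth muscle and also occur in epithelial cells.

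Values are taken to be FPKM (fragments scaled for transcript length and sequencing depth), a unit inferred since the table names none. The sums of FPKM lay between 332961 and 395621 per library, and read depth is unknown. Of 12 epithelial and urothelial markers, 9 had a mean FPKM of at least 1, but EPCAM, CDH1 and KRT19 were at most 0.294 in UM-UC3 cells, where KRT18 (43.6 to 149) and KRT8 (48.0 to 55.5) were present. UPK3A was listed at 0 in every library. Endothelial markers (5 genes) were at most 0.151. Of 4 adipocyte markers only FABP4 and of 5 smooth muscle markers only SMTN had a mean of at least 1.

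CAV1 and CAV2 are neighbours on the plus strand of chromosome 7 of GRCh38. CAV1 (ENSG00000105974) spans 116525001 to 116561184, and CAV2 (ENSG00000105971) spans 116287380 to 116508541. EHD2 (ENSG00000024422) lies on the plus strand of chromosome 19 from 47713422 to 47743134. CAVIN1 (ENSG00000177469) lies on the minus strand of chromosome 17 from 42402449 to 42423256, CAVIN3 (ENSG00000170955) on the minus strand of chromosome 11 from 6318946 to 6320532, and PACSIN2 (ENSG00000100266) on the minus strand of chromosome 22 from 42835412 to 43015149. PACSIN2 overlaps ARFGAP3 on the same strand over 22695 bases, so reads there could belong to either gene. The other genes that overlap a member had an FPKM of at most 1.39.

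RefSeq promoters were listed for 4 of the 6 members: CAV1, CAV2, EHD2 and PACSIN2. The 250 bases before the start are shown for CAV1, CAV2 and EHD2, because these genes were lower at 4 mM than in DMSO in both lines. All are on the plus strand of GRCh38.p14, at chr7:116524759-116525008, chr7:116499488-116499737 and chr19:47713172-47713421. RefSeq listed 3 starts for CAV1, 2 for CAV2, 1 for EHD2 and 6 for PACSIN2. The start nearest to that of the gene in the deposited table was used, and the motif counts below hold for that window. For CAV2 this start lies inside the span given in the deposited table, 212358 bases from its beginning. Capitals mark the GC box GGGCGG on either strand.
CAV1: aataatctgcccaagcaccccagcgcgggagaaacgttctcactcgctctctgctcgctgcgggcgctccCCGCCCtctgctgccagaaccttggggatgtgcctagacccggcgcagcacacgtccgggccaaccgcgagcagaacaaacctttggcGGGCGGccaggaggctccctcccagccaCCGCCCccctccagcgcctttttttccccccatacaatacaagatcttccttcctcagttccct
CAV2: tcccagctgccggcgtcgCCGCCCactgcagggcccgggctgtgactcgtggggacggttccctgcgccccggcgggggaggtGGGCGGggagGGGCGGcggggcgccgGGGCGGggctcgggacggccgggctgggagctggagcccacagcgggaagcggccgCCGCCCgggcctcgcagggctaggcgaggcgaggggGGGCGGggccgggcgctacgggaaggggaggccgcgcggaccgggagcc
EHD2: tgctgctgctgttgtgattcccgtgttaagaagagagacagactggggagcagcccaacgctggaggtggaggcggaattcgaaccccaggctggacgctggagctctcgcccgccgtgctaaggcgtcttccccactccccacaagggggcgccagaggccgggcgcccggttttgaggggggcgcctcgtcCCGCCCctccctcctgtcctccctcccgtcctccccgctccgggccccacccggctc
The CAV1 window held 3 GC boxes, the CAV2 window 6 and the EHD2 window 1. PACSIN2, which had similar levels at all doses in 5637 cells, held 2. At least 1 GC box was present in 42.6% of 35116 RefSeq promoter windows of the same length. The G and C content was 63.6% for CAV1, 83.2% for CAV2, 69.6% for EHD2 and 68.0% for PACSIN2. The median over all windows was 58.0%. An AP-1 site (TGANTCA), a TEAD site (GGAATG), a nuclear receptor core motif (AGGTCA) and a CArG box, searched on both strands, were not found in any of the 4 windows. They were present in 6.57%, 11.9%, 12.1% and 1.16% of all windows.

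CAV1, which encodes the main structural protein of caveolae, was lower with every step in dose in both lines. In 5637 its FPKM was 383, 341, 153 and 34.7 at 0, 1, 2 and 4 mM. In UM-UC3 it was 131, 56.5, 21.8 and 10.8. At 4 mM 9.06% (5637) and 8.20% (UM-UC3) of the DMSO value was left, or 11.0-fold and 12.2-fold lower. At 1 mM 89.2% of the DMSO value was left in 5637 and 43.0% in UM-UC3. Each value is from 1 library, so whether the lines differ at a single dose could not be tested. At 2 mM 39.9% and 16.6% were left. Among all 12649 tested genes, those whose mean FPKM reached 1 (all 6 members did), 4.57% were lower with every step in both lines. CAV1 was number 253 of these genes by mean FPKM, and its slope was number 20 from the lowest in 5637 and number 6 in UM-UC3. The set was proposed with the low CAV1 values known, so nothing is read from this share or the slope ranks.

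CAV2, whose product needs caveolin-1 to reach the cell surface, had smaller differences. Its FPKM was 74.7, 81.1, 60.3 and 17.5 in 5637 at 0, 1, 2 and 4 mM. It was 32.1, 25.0, 14.01 and 8.64 in UM-UC3. At 4 mM 23.4% of the DMSO value was left in 5637 and 26.9% in UM-UC3. In 5637 the library at 1 mM was above DMSO, and the low value at 4 mM stood apart from the other doses.

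**Figure D1:**
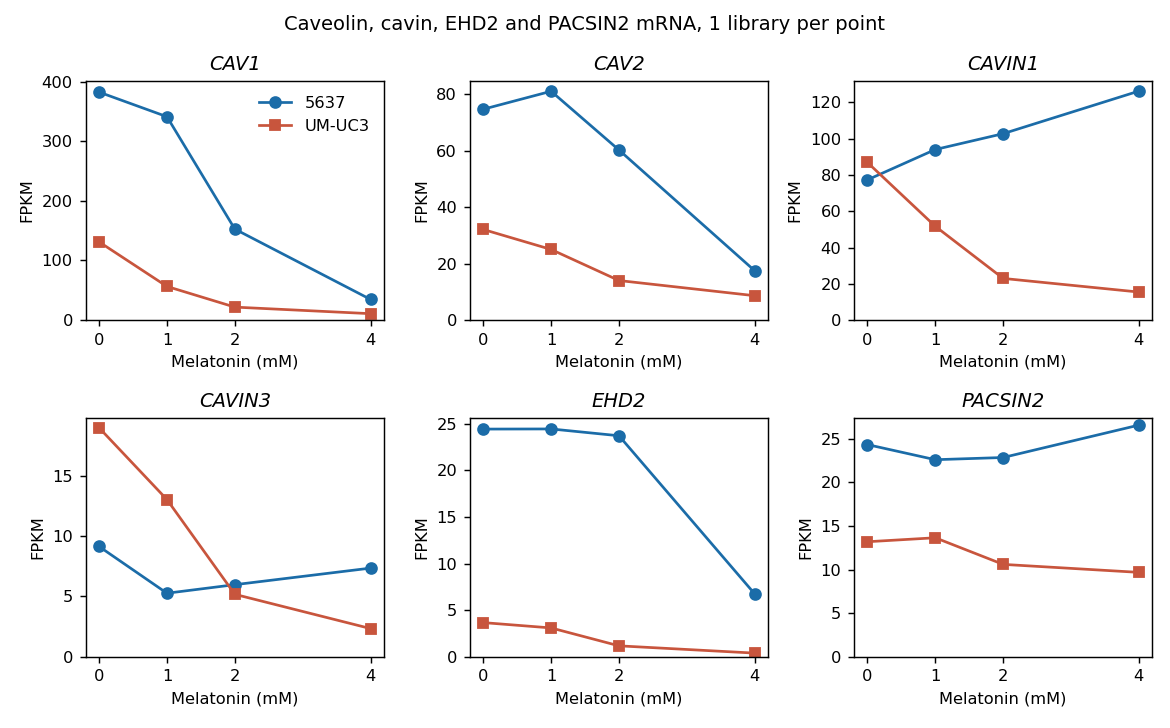
FPKM (vertical axis, from 0) of the 6 members against melatonin dose in mM, with 1 library per point, circles for 5637 and squares for UM-UC3. CAV1, CAV2 and EHD2 are lowest at 4 mM in both lines, whereas CAVIN1 goes from 77.3 to 126 in 5637 and from 86.9 to 15.5 in UM-UC3.

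EHD2, the ATPase of the caveolar neck, stayed near its DMSO level in 5637 up to 2 mM, with an FPKM of 24.4, 24.4, 23.7 and 6.74 at 0, 1, 2 and 4 mM. The low level in this line was seen in the 4 mM library alone, at 27.6% of DMSO. UM-UC3 had less of it from the start, with values of 3.67, 3.09, 1.17 and 0.395. At 4 mM 10.8% of the DMSO value was left there.

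CAVIN1, the cavin required for caveolae in most tissues, went in opposite directions in the lines. In 5637 its FPKM was 77.3, 94.0, 103 and 126 at 0, 1, 2 and 4 mM, higher at each higher dose. In UM-UC3 it was 86.9, 51.7, 23.0 and 15.5, lower at each higher dose. The DMSO libraries were thus at similar levels, and at 4 mM 163% of the DMSO value was found in 5637 and 17.8% in UM-UC3. Of all tested genes, 1.49% were higher at each higher dose in 5637 and lower at each in UM-UC3.

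CAVIN3, an adaptor among the cavins that binds cavin-1, was also low in treated UM-UC3, with an FPKM of 19.0, 13.0, 5.17 and 2.34 at 0, 1, 2 and 4 mM. In 5637 it was 9.13, 5.26, 5.97 and 7.34, without an order by dose. In DMSO it was higher in UM-UC3, and at 4 mM it was higher in 5637. At 4 mM 12.3% of the DMSO value was left in UM-UC3 and 80.4% in 5637.

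PACSIN2 varied least. Its FPKM was 24.3, 22.6, 22.8 and 26.5 over the 4 doses in 5637 and 13.2, 13.6, 10.6 and 9.67 in UM-UC3. Its levels in the lines did not overlap, nor did those of EHD2. The share of all tested genes without overlap was not counted, and 66.6% of them passed the test for a difference between the lines. Over the 6 members, 5 were lower at each higher dose in UM-UC3 and 1, CAV1, in 5637, where 16.7% and 15.6% of all tested genes were. The rule of selection rests on the same libraries for CAV1, so nothing is read from these counts.

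**Figure D2:**
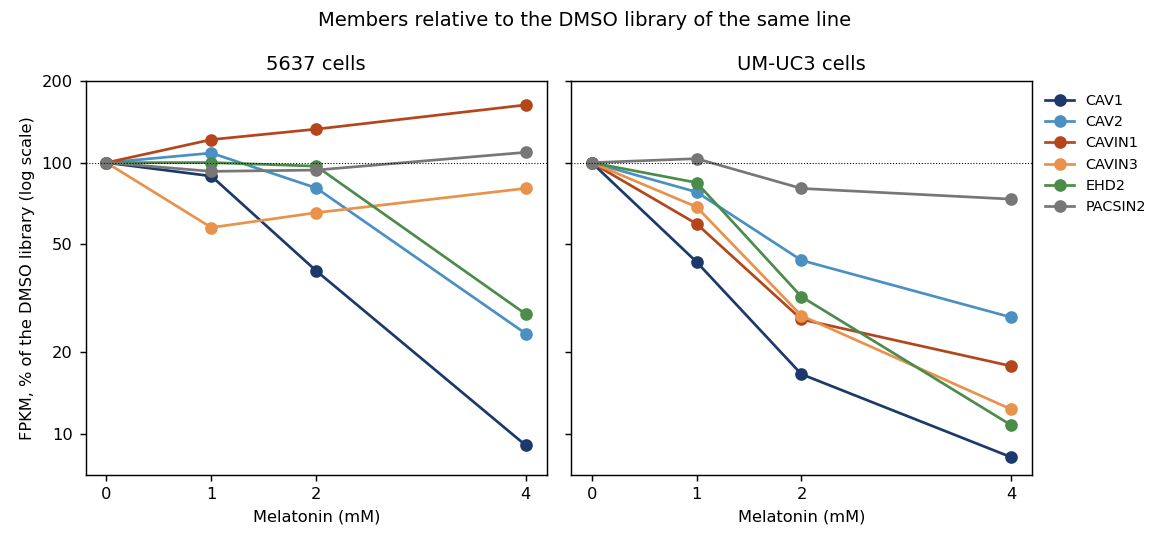
FPKM of each member as a percentage of the DMSO library of the same line (log scale) against melatonin dose in mM, with 5637 on the left, UM-UC3 on the right and 1 library per point. In UM-UC3 5 members lie between 8.20% and 26.9% at 4 mM, whereas in 5637 CAVIN1, CAVIN3 and PACSIN2 lie between 80.4% and 163%.

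The order of the members changed with dose. In both DMSO libraries it began with CAV1, CAVIN1 and CAV2, and at 4 mM CAVIN1 was above CAV1 in both lines. Since no dose was replicated, neighbours in these orders, such as CAVIN1 and CAV2 in 5637 in DMSO (77.3 and 74.7), cannot be separated by replicate error. CAV1 held 64.6% of the summed FPKM of the members in 5637 in DMSO and 15.8% at 4 mM. In UM-UC3 it held 45.9% and 22.8%. The ratio of CAV1 to CAV2 was 5.12, 4.21, 2.53 and 1.98 over the 4 doses in 5637 and 4.09, 2.26, 1.55 and 1.25 in UM-UC3. It was lower with every step in dose in both lines. The ratio of CAV1 to CAVIN1 was 4.95, 3.63, 1.49 and 0.274 in 5637, and 1.51, 1.09, 0.947 and 0.696 in UM-UC3. The ratio of CAV2 to CAVIN1 differed between the lines, being 0.966 (DMSO) and 0.138 (4 mM) in 5637 against 0.369 and 0.559 in UM-UC3. The ratio of CAVIN1 to CAVIN3 was 8.47 in DMSO and 17.2 to 17.9 in the treated libraries of 5637, and 3.97 to 6.62 in UM-UC3. The summed FPKM of the 6 members was 592, 569, 368 and 219 in 5637 and 286, 163, 75.7 and 47.3 in UM-UC3. In these bulk libraries, fewer cells of one state and less RNA per cell cannot be told apart.

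**Figure D3:**
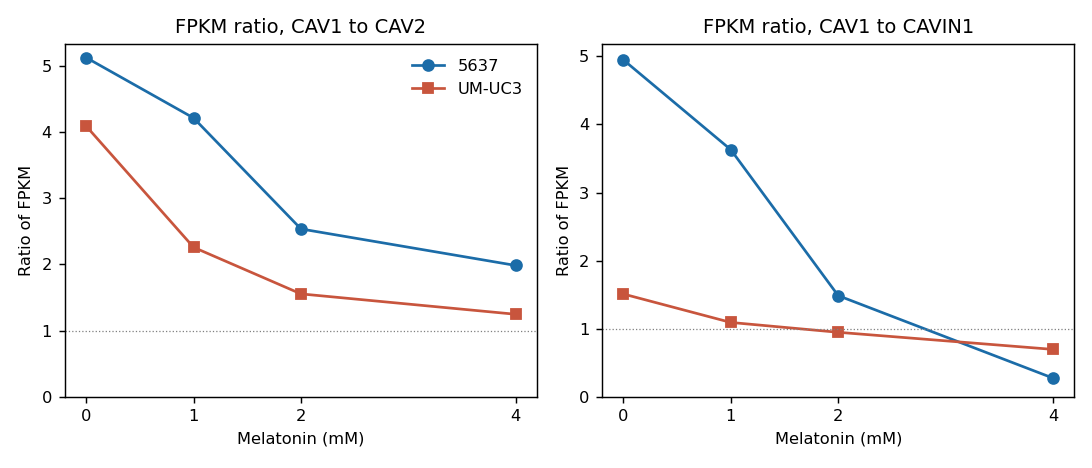
Ratio of the FPKM of CAV1 to that of CAV2 (left) and of CAVIN1 (right) against melatonin dose in mM, 1 library per point, with a dotted line at 1. Both ratios are lower with every step in dose, and CAV1 to CAVIN1 reaches 0.274 in 5637 and 0.696 in UM-UC3 at 4 mM.

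The next question was whether the response to dose differed between the lines. A slope was fitted for each line to log2(FPKM + 1) with limma, and is given as the fitted difference from 0 to 4 mM on that scale, where low genes appear less changed than they are. CAVIN1 had a slope of 0.67 (SE 0.286) in 5637 and of -2.45 (SE 0.286) in UM-UC3. CAVIN3 had -0.11 (SE 0.333) and -2.67 (SE 0.333). Both passed the test of the difference, UM-UC3 minus 5637, at -3.12 (SE 0.404, 95% interval -4.02 to -2.22, adjusted p = 0.00153) for CAVIN1 and -2.56 (SE 0.470, 95% interval -3.61 to -1.51, adjusted p = 0.00529) for CAVIN3. These 2 of 6 members compare with 25.7% of all tested genes called in either direction and 15.3% with the lower slope in UM-UC3. CAVIN1 was number 66 of 12649 from the lowest difference and CAVIN3 number 170. The median slope over all tested genes was 0.05 in 5637 and -0.04 in UM-UC3, against -0.94 and -2.15 over the members, which were proposed with part of these values known.

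The other 4 members did not pass this test. CAV1 had slopes of -3.62 (SE 0.418) in 5637 and -3.47 (SE 0.418) in UM-UC3, with a difference of 0.15 (95% interval -1.18 to 1.49, adjusted p = 0.870). CAV2 had -2.17 and -1.84 (SE 0.346), with a difference of 0.32 (95% interval -0.77 to 1.42, adjusted p = 0.650). EHD2 had -1.77 and -1.85 (SE 0.372), with a difference of -0.08 (95% interval -1.26 to 1.09, adjusted p = 0.921). The EHD2 values depended on the pseudocount, since UM-UC3 levels were low. With 0.1 in place of 1 its slopes were -1.90 and -3.11 and the difference -1.21 (adjusted p = 0.167). The intervals of these 3 genes allow differences above 1 in either direction. PACSIN2 had 0.15 and -0.47 (SE 0.188), and its difference of -0.62 (95% interval -1.21 to -0.03) did not pass after adjustment (adjusted p = 0.108).

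**Figure D4:**
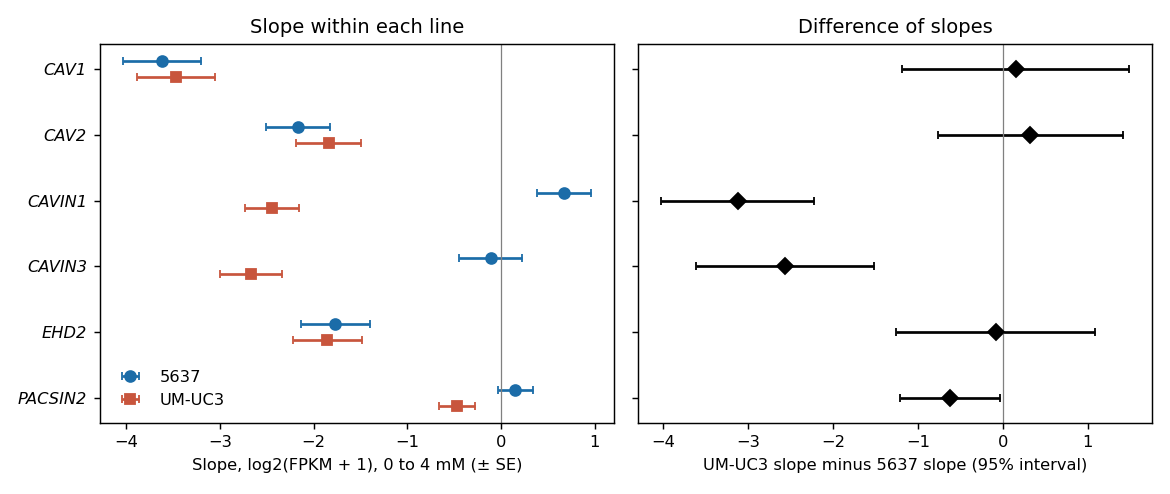
Left, fitted difference in log2(FPKM + 1) from 0 to 4 mM for each member in 5637 (circles) and UM-UC3 (squares), with standard errors. Right, UM-UC3 slope minus 5637 slope with 95% intervals not adjusted for the number of genes; CAVIN1 (-3.12) and CAVIN3 (-2.56) lie apart from 0.

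Single libraries weighed on these slopes. The CAVIN1 difference passed with any 1 library left out. That of CAVIN3 did not pass without the 4 mM library of 5637 (-1.59, adjusted p = 0.177) or that of UM-UC3 (-3.27, adjusted p = 0.0962). Without the 5637 library at 4 mM the slope in 5637 was -0.08 for EHD2, -0.61 for CAV2 and -1.08 for CAVIN3, and without the DMSO library of 5637 it was 0.55 for CAVIN3. With no filter on low genes neither difference passed (adjusted p = 0.0509 for CAVIN1 and 0.0712 for CAVIN3). With the UM-UC3 library at 4 mM left out, the UM-UC3 slope of CAVIN1 was -3.75.

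The members also differed in level between the lines. Averaged over the 4 doses, 5 of 6 members had lower levels in UM-UC3 than in 5637, where 66.6% of all tested genes were called, 36.7% lower and 30% higher. EHD2 had the largest difference of the members, with a mean FPKM of 19.8 ± 8.73 (SD over 4 doses) in 5637 and 2.08 ± 1.55 in UM-UC3 (log2 difference -2.76, SE 0.207, adjusted p = 4.04e-06 from limma). CAV1 had 228 ± 163 and 55.1 ± 54.4 (-2.12, SE 0.225, adjusted p = 3.40e-05), and the lines overlapped, since the 4 mM library of 5637 was below 2 UM-UC3 libraries. CAV2 had 58.4 ± 28.6 and 19.9 ± 10.6 (-1.45, SE 0.195, adjusted p = 0.000150), with the same overlap. PACSIN2 had 24.1 ± 1.82 and 11.8 ± 1.94 (-0.98, SE 0.133, adjusted p = 0.000151). In the DMSO libraries alone 5637 had 6.66 times the EHD2 level, 2.92 times the CAV1 level, 2.33 times the CAV2 level and 1.84 times the PACSIN2 level of UM-UC3.

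CAVIN1 passed over the 4 doses (-1.44, SE 0.415, adjusted p = 0.0125), but its DMSO libraries differed by 0.17 the other way, so the difference between the lines lay in the treated libraries. CAVIN3 did not pass (0.16, SE 0.365, 95% interval -0.66 to 0.98, adjusted p = 0.711). It passed without the 5637 library at 4 mM (0.64, adjusted p = 0.0287).

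Other genes of caveolae were described by a dose trend over both lines, with a term for the line. Of 14 other caveola genes 10 were tested, and 3 of them fell and 0 rose by limma (4 had an unadjusted p under 0.05), where 24.9% of all tested genes passed, 12.8% falling and 12.1% rising. Their median slope was -0.18, against -0.01 over all tested genes. CAV3 and PACSIN1, known from muscle and neurons, and CAVIN2 and CAVIN4 had a mean FPKM under 1. SRC, the kinase that phosphorylates caveolin-1, had an FPKM of 28.1, 23.2, 22.0 and 10.5 in 5637 and of 1.84, 1.53, 0.989 and 0.472 in UM-UC3 (slope -1.15, SE 0.182, adjusted p = 0.00387). PACSIN3, a relative of PACSIN2, had 17.9, 11.9, 13.2 and 3.32 in 5637 and 6.58, 6.73, 5.47 and 3.61 in UM-UC3 (-1.41, SE 0.317, adjusted p = 0.0134). MICALL1, a partner of EHD1 on recycling endosomes, also fell (-0.71, adjusted p = 0.0344), but did not pass without the 5637 library at 0, 1 or 4 mM (adjusted p from 0.0666 to 0.115) or after rescaling of the libraries (0.0537). DNM2, the dynamin that cuts membrane necks, did not pass (0.08, SE 0.138, adjusted p = 0.689), nor did ROR1, a receptor that holds caveolin-1 and cavin-1 together (-0.75, adjusted p = 0.0548).

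Of these 10 genes 3 had a lower slope in UM-UC3 than in 5637 and 0 a higher one by limma, where 15.3% and 10.4% of all tested genes did. The 3 genes were singled out after their values were seen. FLNA, the actin crosslinker filamin A that binds caveolin-1, had an FPKM of 248, 243, 285 and 453 in 5637 and of 438, 298, 263 and 173 in UM-UC3 (difference -2.19, SE 0.306, adjusted p = 0.00183). As for CAVIN1, 5637 had the higher value at 4 mM and UM-UC3 the higher value in DMSO. EHD1, an EHD2 relative of recycling endosomes, had 15.6, 15.7, 18.8 and 29.6 in 5637 and 10.0, 9.59, 6.86 and 7.14 in UM-UC3 (-1.42, SE 0.305, adjusted p = 0.00975). EHD4 was near the threshold (-1.04, adjusted p = 0.0489). FLNA and EHD1 did not pass without either 4 mM library (adjusted p from 0.0728 to 0.211). EHD1 also did not pass with no filter (0.0724) or on a logarithmic dose (0.0659), and EHD4, with 1 library left out, passed only without the 5637 library at 0 or 2 mM.

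**Figure D5:**
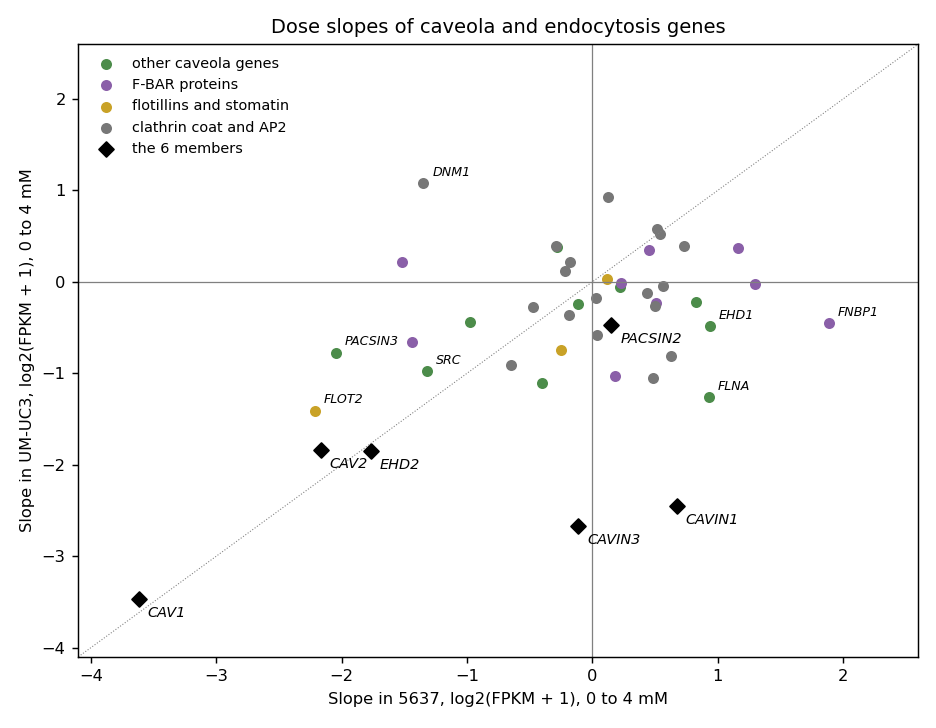
Fitted difference in log2(FPKM + 1) from 0 to 4 mM in 5637 (horizontal) and UM-UC3 (vertical) for the 6 members (diamonds) and the tested genes of 4 lists (circles), with the dotted line at equal slopes. CAV1, CAV2 and, with this pseudocount of 1, EHD2 lie near that line at negative slopes, and CAVIN1 and CAVIN3 lie below it with FLNA and EHD1.

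Of 13 F-BAR proteins, the family of PACSIN2, 9 were tested, and 1 fell and 1 rose, beside the 12.8% and 12.1% of all tested genes given above. The slope was lower in UM-UC3 for 3 of the 9 and higher for 1 by limma, where 15.3% and 10.4% of all tested genes were. FNBP1 (difference -2.33, SE 0.321, adjusted p = 0.00175) is named for its value. Its FPKM was 8.37, 15.2, 21.1 and 35.4 in 5637 and 13.8, 12.6, 9.57 and 10.04 in UM-UC3. TRIP10 fell (-1.05, SE 0.234, adjusted p = 0.0130), and SRGAP2 rose (0.77, SE 0.212, adjusted p = 0.0289). Of 3 scaffold proteins of other membrane domains, flotillin-2 (FLOT2) fell, with an FPKM of 22.1, 25.6, 23.1 and 4.42 in 5637 and of 13.97, 11.2, 7.47 and 4.77 in UM-UC3 (-1.81, SE 0.359, adjusted p = 0.00831). Its partner FLOT1 did not pass (0.07, SE 0.191, adjusted p = 0.815), nor did STOM (-0.50, adjusted p = 0.0898). With no filter MICALL1 (adjusted p = 0.137), PACSIN3 (0.0792), TRIP10 (0.0738), SRGAP2 (0.122) and FLOT2 (0.0615) did not pass, and SRC did.

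Clathrin is the coat of the other main route of endocytosis. Of 18 genes for clathrin, its AP2 adaptor and their accessory proteins, 2 rose, 1 fell and 15 did not pass, against 12.1% rising and 12.8% falling over all tested genes, with a median slope of -0.02. The slope was lower in UM-UC3 for 2 of the 18, CLTB and ITSN1, and higher for 1, DNM1, all named for their values. Of all tested genes, 15.3% had the lower slope in UM-UC3 and 10.4% the higher one. DNM1, a dynamin known from neurons, had 62.9, 65.3, 48.6 and 25.8 in 5637 and 2.36, 2.99, 3.69 and 6.08 in UM-UC3 (difference 2.43, SE 0.305, adjusted p = 0.00139), opposite in sign to CAVIN1. The slope differences of DNM1, CLTB, ITSN1 and FNBP1 were not followed under the alternatives. Over all tested genes, the number passing this test fell from 3249 to 63 without the UM-UC3 library at 4 mM. PICALM, a clathrin assembly protein, had an FPKM of 86.1, 97.4, 113 and 124 in 5637 and of 99.8, 104, 127 and 146 in UM-UC3 (0.55, SE 0.144, adjusted p = 0.0231). ITSN2, a scaffold of the coat, rose as well (0.56, adjusted p = 0.0400), and EPN1, an epsin, fell (-0.78, adjusted p = 0.0441). The heavy chain CLTC had a slope of 0.05 (adjusted p = 0.861). SRGAP2 did not pass without the 5637 library at 0, 1 or 4 mM or the UM-UC3 library at 0 or 2 mM (adjusted p from 0.0511 to 0.142). PICALM did not pass without the libraries at 0 or 1 mM of either line (0.0525 to 0.0648), and ITSN2 passed only without the 5637 library at 2 mM or the UM-UC3 library at 4 mM. EPN1 did not pass without the 5637 library at 0, 2 or 4 mM or the UM-UC3 library at 0 or 1 mM (0.0582 to 0.123). With no filter PICALM (adjusted p = 0.0620), ITSN2 (0.133) and EPN1 (0.168) did not pass. Of the listed genes called over both lines, SRC alone passed with no filter.

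The genes around the members gave a view of their loci. Distances were measured between the lowest coordinates of the genes, whatever their strand. Within 250 kb of a member 30 other genes were tested. Of these 3 rose and 5 fell over both lines, where 12.1% and 12.8% of all tested genes did. The slopes of 11 of the 30 differed between the lines, where 25.7% of all tested genes did. The other tested genes near CAV2 and CAV1 were TES, which encodes the focal adhesion protein testin, and MET, the hepatocyte growth factor receptor. MET had an FPKM of 70.6, 79.2, 88.8 and 46.7 in 5637 and of 52.3, 54.7, 58.7 and 39.7 in UM-UC3 and did not pass (-0.51, SE 0.231, adjusted p = 0.130). TES had 86.1, 92.5, 105 and 151 in 5637 and 53.2, 56.6, 51.3 and 37.98 in UM-UC3. It did not pass over both lines (0.15, SE 0.268, adjusted p = 0.712), and its slope was lower in UM-UC3 (difference -1.35, adjusted p = 0.00687), though not without either 4 mM library (adjusted p = 0.143 without that of 5637 and 0.258 without that of UM-UC3). The TES difference also did not pass with no filter (0.0594) or on a logarithmic dose (0.0738).

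Next to CAVIN3, SMPD1, the acid sphingomyelinase, rose over both lines (1.39, SE 0.381, adjusted p = 0.0277), and FAM160A2 rose as well (1.42, SE 0.211, adjusted p = 0.00312). The slope of SMPD1 was 2.37 in 5637 and 0.42 in UM-UC3 (difference -1.94, adjusted p = 0.00667), and its FPKM was 6.30, 9.30, 21.4 and 34.6 against 4.26, 4.70, 4.31 and 6.18. FAM160A2 had 0.95 and 1.88 (difference 0.93, adjusted p = 0.0268). The dose trend of SMPD1 did not pass without the 5637 library at 0, 1 or 4 mM (adjusted p from 0.0538 to 0.139) or with no filter (0.138). STAT3 (0.48, adjusted p = 0.0722) and ATP6V0A1 (-0.36, adjusted p = 0.446), which flank CAVIN1, did not pass over both lines. ATP6V0A1, a subunit of the proton pump of vacuoles, had slopes of 0.50 in 5637 and -1.22 in UM-UC3 (difference -1.73, adjusted p = 0.00548), the same signs as CAVIN1. Of the 12 tested genes near CAVIN1, 4 had a called slope difference, in both directions. The slope was also lower in UM-UC3 for AC067852.2 (-1.04), but it was higher for COASY (0.83) and MLX (1.33). The nearest tested genes of EHD2, BICRA (-0.28, adjusted p = 0.280) and NOP53 (0.03, adjusted p = 0.928), and of PACSIN2, ARFGAP3 (0.77, adjusted p = 0.0741) and TTLL1 (0.54, adjusted p = 0.101), did not pass either. ARFGAP3, which overlaps PACSIN2, had slopes of 1.38 and 0.16 (difference -1.22, adjusted p = 0.0323). Among the flanking genes, only the slope difference of TES was followed under the alternatives.

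The likeness of patterns was measured by Pearson's r over the 8 libraries, after log2(FPKM + 1) was centred within each line, among genes whose mean FPKM reached 4. The libraries share their doses, so any gene with a steady trend scores highly, and 676 of 9491 genes had r above 0.9 to CAV1. Among the genes most like CAV1 were ENOSF1 (r = 0.997), NUDT3 (0.994), MCM7 (0.991) and KIF2A (0.991). CAV2 had r = 0.976 to CAV1, at number 54, and EHD2 0.953, at number 204. CAVIN1 had 0.498 and CAVIN3 0.655. CAV2 and EHD2 had r = 0.988 to each other, and CAVIN1 and CAVIN3 had 0.904. SMARCD1 (0.997) and FBXO4 (0.996) were most like CAV2. ZNF480 (0.980) was most like CAVIN1, and CNP (0.987) and DMAC1 (0.983) were most like CAVIN3. PRIM1 and AGPAT2 (both 0.995) were most like EHD2, and NRAV (0.984) and MMP19 (0.970) most like PACSIN2. None of the 4 genes named for CAV1 was among the first 5 without centring or with Spearman's rho.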

How the data were processed

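The authors deposited normalized, non-integer values without a named unit. These were read as FPKM because their sums vary between libraries and StringTie stands in the submitters' processing notes, beside CASAVA 1.8, FastQC and edgeR. Poly(A) libraries were trimmed by the authors with Cutadapt 1.18 and Trimmomatic 0.35, and HISAT2 2.1.0 aligned the paired reads to GRCh38. The annotation release and the strand setting of the counting are not given in the sources used here. Other deposited sheets, a subset of 22465 genes holding identical values and a set of correlations, were left out.

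With limma 3.58.1 (R 4.3.3), log2(FPKM + 1) was fitted for 12649 genes, whose mean FPKM reached 1, using eBayes with trend and robust settings, and Benjamini-Hochberg adjustment ran over all of them at 0.05. Dose entered as mM divided by 4. The fit of line and dose leaves 5 residual degrees of freedom, and that of a slope per line leaves 4. The 6 members and the lists were chosen with earlier results of these data known. Genes named beside the members are the called genes and main components of each list, the nearest tested genes on each side of a member, and those of most similar pattern, some of which are not reported here. Alternatives were rescaling to trimmed means, other filters (none, or a mean of 5), a pseudocount of 0.1, plain eBayes, other codings of dose, no line term, and libraries left out. DESeq2 was not run, since it needs counts. On simulated data the test of the slope difference missed most of the changes put in, so a slope difference that did not pass is weak evidence of likeness. Depth is unknown, so no counting interval is given. Promoters are from RefSeq (GRCh38.p14). Tables and plots were made in Python 3.11.15 (pandas 2.3.3, matplotlib 3.10.9).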

Additional observations from a re-analysis of the deposited data

Results flagged for a closer look

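The dose slope of CAVIN1 differed between the lines by -3.12 (UM-UC3 minus 5637), since its FPKM was higher at each higher dose in 5637 cells and lower at each in UM-UC3 cells. The dose slope of CAVIN3 differed by -2.56, with a slope of -0.11 in 5637 cells that lay between -1.08 and 0.55 with 1 library left out. Both passed the limma test of the difference itself, but not with no filter (adjusted p = 0.0509 and 0.0712), and CAVIN3 did not pass without either 4 mM library.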

How the results depend on the processing

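With 1 library per dose and line, each p-value rests on a straight line over dose. Slopes differing between the lines numbered 3249 genes. This became 318 with no filter, 763 on a logarithmic dose, 114 without both 4 mM libraries, and 63 to 3586 with 1 library left out (666 lacking 5637 at 4 mM, 63 lacking UM-UC3 at 4 mM). The higher slope was in UM-UC3 for 1313 of the 3249, and for 1729 of 3447 after rescaling. Members passing this test numbered 2, against 0 by limma with no filter (3 had an unadjusted p under 0.05; CAVIN1 had an adjusted p of 0.0509 and CAVIN3 of 0.0712), 1 without both 4 mM libraries and 1 to 2 with 1 library left out. Dose trends over both lines numbered 3150 genes. This became 1104 with no filter, 351 without both 4 mM libraries, 65 for 4 mM against DMSO alone, 3 without the line term, 0 by limma for any melatonin against DMSO (947 at an unadjusted p under 0.05), and 2291 to 4463 with 1 library left out. Line differences numbered 8430 genes and 5 members, against 7668 to 8778 and 5 to 6 with 1 library left out. The cause of these changes was not tested.

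The line differences of CAV1, CAV2, EHD2 and PACSIN2 passed under every alternative with a test. CAVIN1 did not pass there with no filter (adjusted p = 0.056) or without both 4 mM libraries (-0.93, adjusted p = 0.0663), and had 0.17 in DMSO alone. With 1 library left out, the line difference of CAVIN3 ranged from -0.0946 to 0.64, being -0.0946 lacking UM-UC3 DMSO and -0.04 lacking 5637 at 1 mM. The slope difference ranged from -1.46 to 0.86 for CAV1 (-0.04 and -0.83 lacking 5637 at 1 and 4 mM), from -1.23 to 1.11 for CAV2 (-0.11 lacking UM-UC3 at 4 mM) and from -1.77 to 0.59 for EHD2 (0.03 lacking UM-UC3 at 1 mM). Without both 4 mM libraries it was -2.44 for CAV1 and -1.67 for CAV2, and on a logarithmic dose -0.22 for CAV1. The 5637 slope of PACSIN2 ranged from -0.17 to 0.32, and was -0.17 without both 4 mM libraries. Among flanking genes, dose slopes ranged from -0.32 to 0.65 for TES (-0.01 lacking 5637 DMSO), from -0.78 to 0.26 for ATP6V0A1 and from -0.0658 to 0.10 for NOP53 (-0.02 lacking 5637 at 1 mM). Without both 4 mM libraries ATP6V0A1 had 0.20, NOP53 -0.19 and MET 0.49, and NOP53 had -0.011 for any melatonin against DMSO. No gene of the 4 lists that passed over both lines did so without both 4 mM libraries, while the flanking gene FAM160A2 did (1.60, adjusted p = 0.0475). The labels give no replicate numbers. With the lines paired by dose (dose as a category), 7587 genes and 5 members had a line difference, and CAVIN1 had an adjusted p of 0.0405.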

Other observations

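FABP4, a fatty acid binding protein of adipocytes, was on the list of adipocyte markers and had an FPKM of 59.6, 8.11, 4.58 and 3.29 in 5637 cells at 0, 1, 2 and 4 mM, while it was listed at 0 in every UM-UC3 library. ADIPOQ, PLIN1 and LEP, the other genes of that list, were at most 0.147 in all 8 libraries. CD68, on the leukocyte list, had 106, 63.8, 61.0 and 53.0 in UM-UC3 cells and at most 4.85 in 5637 cells, while PTPRC, CD3E and CD14 were at most 0.242.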
